A study of Caenorhabditis elegans with 5 samples.

Results

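Mitochondria keep their own ribosomes, which translate the few respiratory chain proteins that the mitochondrial genome still encodes. The proteins of these mitoribosomes are all encoded in the nucleus, made in the cytosol and imported, so a small subunit and a large subunit have to be put together from nuclear proteins and mitochondrial rRNA. In *C. elegans*, RNAi against single genes of this family, *mrps-5* among them, is known to lengthen lifespan and to induce the mitochondrial unfolded protein response. The nuclear genes are named *mrps-* for the small subunit and *mrpl-* for the large subunit.

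The members described here are all genes in the count files whose symbol is *mrps-* or *mrpl-* followed by a number. They are 65 of 19176 genes, 25 named for the small subunit and 40 for the large subunit. For 62 of them the symbol stood in the files, and for the other 3 (*mrps-27*, *mrpl-44* and *mrpl-48*) it came from the WormBase ID. All 65 passed the filter on low counts, and their raw counts lay between 9 and 2712 reads in a library. The count files describe 12 of these rows, 9 of them as a ribosomal protein, 1 (*mrpl-28*) by the name of an antigen and 1 (*mrpl-45*) as a zinc finger protein. The remaining one, the row of *mrpl-44*, is described as a subunit of methylcrotonyl-CoA carboxylase, an enzyme of leucine breakdown, and the annotation gives *mrpl-44* and *mccc-2* 166 bases of shared exon on the same strand, so its counts are uncertain as those of a ribosomal protein.

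RNA-seq counts were compared between Day 6 adults (3 libraries) and L4 larvae (2 libraries) of wild type N2 *C. elegans*. Both groups grew at 20° on *E. coli* HT115 with L4440, an RNAi vector without insert, and their plates held 2 mM IPTG and carbenicillin. Day 6 adults were on the sixth day of adulthood and, from L4 on, their plates also held FUdR at 25 µg/mL, which blocks DNA synthesis and with it reproduction. L4 is the last larval stage and these animals had no FUdR, so the effects of age and of FUdR cannot be told apart. RNA came from whole animals, in which fewer cells of a type and less RNA per cell cannot be told apart either. The replicates are described as independent, but the labels do not tie each one to a culture. The p-values measure only the spread between the libraries in a fit.

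Total counts were between 13043617 and 29247719 in the Day 6 libraries and were 14517986 and 9368922 in L4 replicates 1 and 2. L4 replicate 1 stood apart from the other libraries. It detected 12442 genes, against 15251 to 16634 in the Day 6 libraries and 14706 in L4 replicate 2, and cytosolic ribosomal proteins took 48.02% of its counts, against 20.8% to 25.1% in the other 4 libraries. TMM scaling, which sets each library by its middle genes, gave it a factor of 0.293, against 1.03 to 1.63 elsewhere. Results are therefore given with all 5 libraries and without L4 replicate 1. The fit without it keeps L4 replicate 2 as its only L4 library, so its p-values rest on the spread between the Day 6 libraries alone. They hold no spread between L4 libraries, and the calls of that fit are not a second independent test. Levels are in CPM, counts divided by the TMM-scaled library size and multiplied by 1000000, and fold changes are Day 6 over L4, so that a negative log2 value is lower at Day 6. A gene is said to have fallen or risen where the quasi-likelihood test of edgeR gave a Benjamini-Hochberg adjusted p under 0.05 over all genes tested.

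The genes of mitochondrial ribosomal proteins were lower at Day 6 than at L4. With all libraries, 26 of 65 fell, while 12.5% of the 12758 genes tested fell. No member rose, where 14.3% of all genes did (DESeq2 and voom also gave 0 rises). At an unadjusted p under 0.05 there were 42 falls and 0 rises among the members by edgeR. The share of all genes at that threshold was not counted, so the 42 is not to be set beside the 12.5%. The fitted log2 fold change was negative in all 65 members, from -4.10 to -0.04. Its median was -1.73, while the median of all genes tested was 0.08. Without L4 replicate 1, 32 members fell and 1 rose, the median was -0.93 and 58 were negative. In that fit 24.1% of 14302 genes fell and 26.0% rose, and the median of all genes was 0.07. Leaving out L4 replicate 1 thus left the direction in place and brought the size of the difference down.

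These calls rest on few libraries and on the scaling. With library size alone in place of TMM, 0 members fell (7 at an unadjusted p under 0.05, edgeR), and the median was -0.80. In that fit 1.37% of all genes tested fell. Without Day 6 replicate 1, 2 or 3, the number of members that fell was 0, 1 and 0 (24, 25 and 27 at an unadjusted p under 0.05). The medians were -1.65, -1.74 and -1.73, and 2.38%, 4.14% and 2.49% of all genes tested fell in these fits. These shares and the 1.37% are at an adjusted p under 0.05. Shares of all genes at an unadjusted p were not counted. The 7, 24, 25 and 27 are therefore not to be set beside the adjusted shares. Without L4 replicate 2 the median of the members was -2.19, against 1.05 over all genes. With the replicate number as a block, 1 member fell, *mrps-12*, whether the numbers of the sample titles or those of the library names were used (medians -1.45 and -1.43). Of all genes tested, 5.06% and 2.81% fell with these blocks, so the calls became fewer over all genes too.

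The summed raw shares showed the same order without TMM scaling. Of the reads counted, the 65 genes together held 0.0979%, 0.147% and 0.122% in the Day 6 libraries (replicates 1 to 3), against 0.154% and 0.29% in the L4 libraries. Both L4 libraries were above all Day 6 libraries, although L4 replicate 1 only narrowly so. Of single members, 42 of 65 had both L4 values in TMM-scaled CPM above all 3 Day 6 values, while this held for 23.4% of all genes tested. With library size alone in place of TMM, the number was 27 of 65. The share of all genes with that scaling was not counted, so the 27 is not to be set beside the 23.4%. In TMM-scaled CPM the opposite, all Day 6 values above both L4 values, was found in 0 of 65 members and in 35.4% of all genes.

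**Figure D1:**
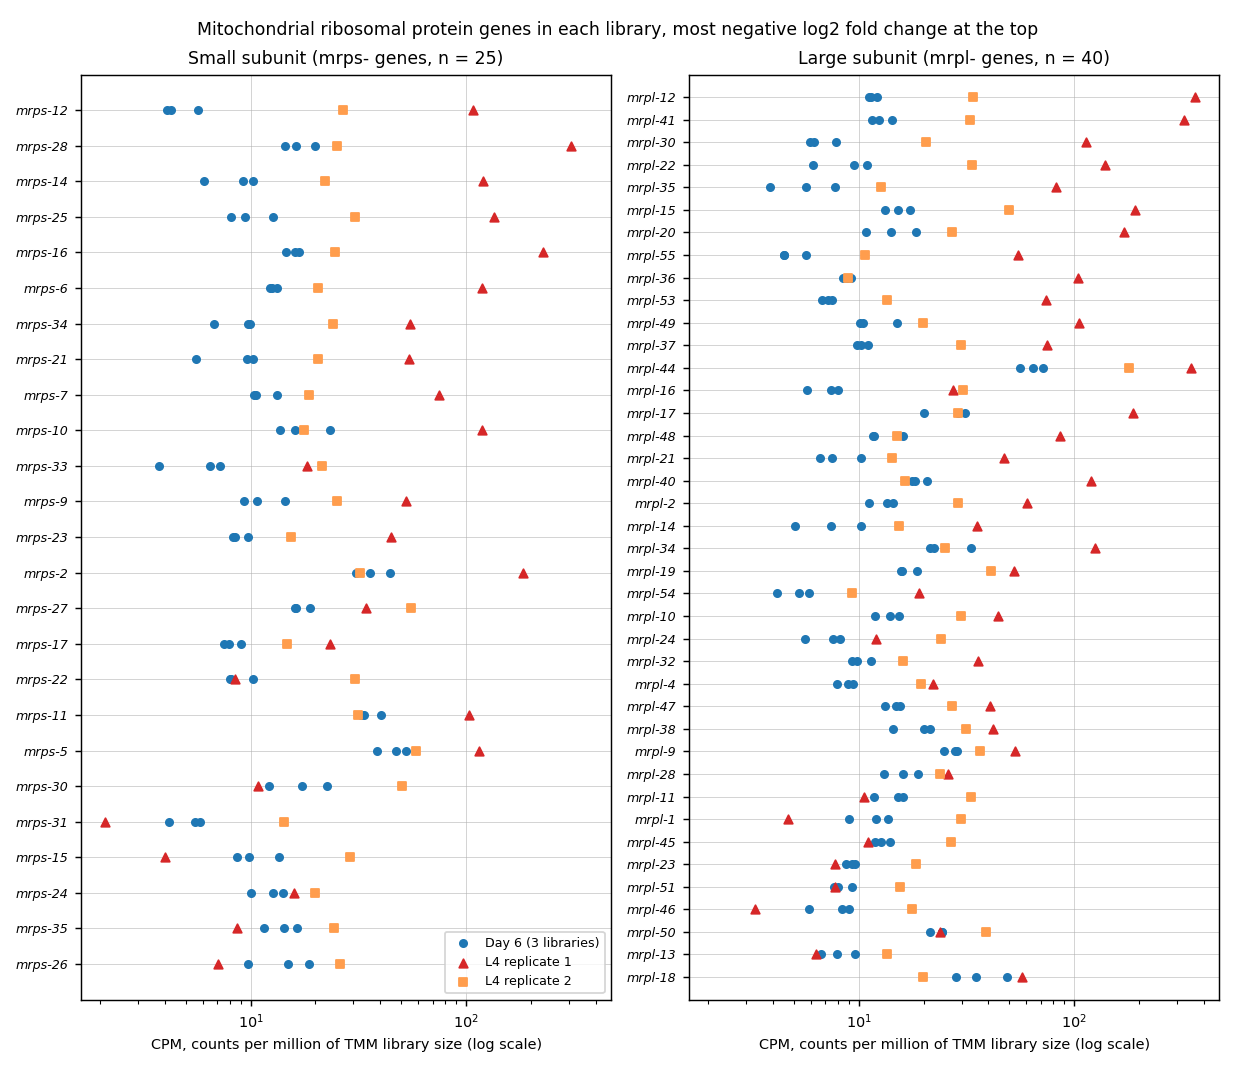
Level of each of the 65 genes in each library, in CPM on a log scale, for the small subunit (left) and the large subunit (right), ordered by fitted log2 fold change. Blue circles are the 3 Day 6 libraries, red triangles L4 replicate 1 and orange squares L4 replicate 2. L4 replicate 2 lay above all Day 6 libraries in 56 genes, and L4 replicate 1 in 51 but below all of them in 11. Of the 12758 genes tested, L4 replicate 2 lay above all Day 6 libraries in 5322, and L4 replicate 1 in 4470. How many of all genes had L4 replicate 1 below all Day 6 libraries was not counted.

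The plot of levels by library shows how differently the L4 libraries behaved over the family. At Day 6 the members held nearly one order, with Pearson r of 0.89 to 0.93 between libraries over the log2 CPM of the 65 genes, which are not independent points. Between the L4 libraries the same r was 0.24. Per kb of exon, the SD of log2 CPM among members was 1.01, 0.78 and 0.82 in the Day 6 libraries and 2.11 and 0.61 in L4 replicates 1 and 2. L4 replicate 2 was thus the library with the narrowest spread among the members, and L4 replicate 1 the one with the widest. L4 replicate 1 was the higher of the L4 libraries in 46 of 65 members, while this held for 38.3% of all genes tested.

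Among proteins of the small subunit with relatives in bacterial ribosomes, 8 of 15 genes fell with all libraries and 5 without L4 replicate 1 (medians -1.93 and -0.62). *mrps-12* encodes the relative of bacterial S12, a protein of the decoding centre where codons are read. The gene lies on chromosome V (20838080 to 20838768, plus strand, WBcel235), with 542 bases of exon. It had 5.71, 4.29 and 4.11 CPM at Day 6, against 107.8 and 26.7 CPM in L4 replicates 1 and 2. Every Day 6 value was far below both L4 values. The level was 14.2-fold lower at Day 6 (log2 fold change -3.83 ± 0.67 SE, adjusted p = 0.0084 by edgeR), and 5.36-fold lower without L4 replicate 1 (-2.42, adjusted p = 0.0003).

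*mrps-14*, for the relative of bacterial S14, also fell in both fits (-3.05 with adjusted p = 0.0217, and -1.31 with adjusted p = 0.0116, by edgeR). *mrps-7*, for the relative of S7, which organizes the head of the small subunit, had 10.4, 10.65 and 13.2 CPM at Day 6, against 75.2 and 18.7 CPM at L4. It fell with all libraries (-2.03, edgeR adjusted p = 0.0487) and did not pass without L4 replicate 1 (-0.63, adjusted p = 0.104). The groups did not overlap in *mrps-7*, and most of the difference came from L4 replicate 1.

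The same held more strongly for *mrps-28* and *mrps-16*. *mrps-28* had 19.9, 14.4 and 16.3 CPM at Day 6, against 306.5 and 25.1 CPM in L4 replicates 1 and 2. Its log2 fold change was -3.29 with all libraries (adjusted p = 0.0345, edgeR) and -0.49 without L4 replicate 1 (adjusted p = 0.183). *mrps-16* had 16.04, 14.6 and 16.8 CPM at Day 6, against 228.3 and 24.6 CPM at L4, with log2 fold changes of -2.996 and -0.56. Both genes were among the 6 members of highest mean level per kb of exon, a rank that L4 replicate 1 set. *mrps-16* shares 169 bases of exon with *ilcr-2* on the same strand, so some of its reads may be those of its neighbour.

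*mrps-5*, for the relative of bacterial S5, was among the most abundant members at Day 6. It had 52.4, 47.2 and 38.5 CPM in the Day 6 libraries, against 114.9 and 58.7 CPM in the L4 libraries. All Day 6 values were below both L4 values, the nearest by little. The difference did not pass the test with all libraries (-0.91, adjusted p = 0.199, edgeR) nor without L4 replicate 1 (-0.27, adjusted p = 0.449).

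The other 10 genes with *mrps-* names encode proteins that mitoribosomes have and bacterial ribosomes lack. Here 3 of 10 fell with all libraries. The median was -1.28 with all libraries and -1.43 without L4 replicate 1. Unlike the medians of the other groups by subunit and bacterial relatives, it was not closer to 0 in the second fit. Single genes went either way, as the values of *mrps-25* and *mrps-22* below show. These 10 genes are longer than the others, with a median exon length of 1395 bases against 737 in the 15 genes with bacterial relatives. *mrps-25* fell in both fits (-3.03 with adjusted p = 0.0179, and -1.52 with adjusted p = 0.0037, by edgeR). *mrps-22* had 8.001, 10.2 and 8.10 CPM at Day 6, against 8.46 and 30.5 CPM in L4 replicates 1 and 2. L4 replicate 1 lay within the Day 6 values and L4 replicate 2 far above them. *mrps-22* did not pass with all libraries (-1.16, adjusted p = 0.192, edgeR) and fell without L4 replicate 1 (-1.72, adjusted p = 0.0013).

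*mrps-30*, whose mammalian relative sits in the large subunit despite its name, had 12.1, 17.25 and 22.6 CPM at Day 6, against 10.8 and 50.4 CPM at L4. *mrps-31* had 4.18, 5.84 and 5.54 CPM at Day 6, against 2.11 and 14.4 CPM at L4, where the lower value rests on 9 reads. In both genes L4 replicate 1 was below every Day 6 library and L4 replicate 2 above every one. Both fell without L4 replicate 1 (-1.47 and -1.39, adjusted p = 0.0058 and 0.0099, edgeR). In *mrps-26* and *mrps-35*, among the 6 members nearest to no change, the L4 libraries were split in the same way, with log2 fold changes of -0.21 and -0.24 with all libraries and -0.77 and -0.71 without L4 replicate 1, which did not pass (adjusted p = 0.103 and 0.0739, edgeR). *mrps-35* shares 151 bases of exon with *sws-1* on the opposite strand, and *sws-1* rose (5.46). Whether reads were counted by strand is not given in the sources used here.

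**Figure D2:**
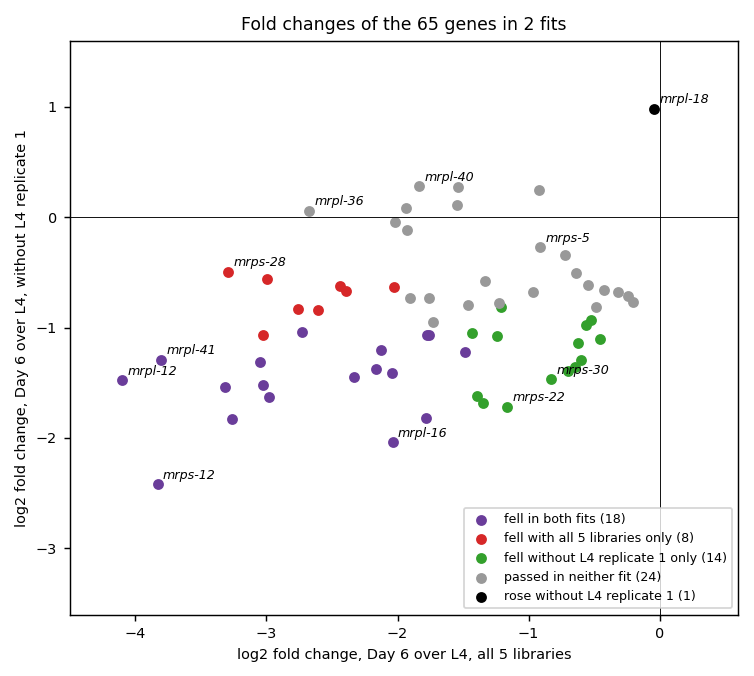
Fitted log2 fold change of Day 6 over L4 for each of the 65 genes, with all 5 libraries (x axis) and without L4 replicate 1 (y axis), coloured by which fit passed an adjusted p of 0.05. In 18 genes the fall passed in both fits, in 8 with all libraries only and in 14 without L4 replicate 1 only, and *mrpl-18* rose without L4 replicate 1.

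Among large subunit proteins with relatives in bacteria, 9 of 26 genes fell with all libraries and 14 without L4 replicate 1, with medians of -1.51 and -0.999. The most negative fold change of the family was that of *mrpl-12*, whose product forms the flexible stalk that brings translation factors to the ribosome. *mrpl-12* is on chromosome III (10707761 to 10708521, plus strand) and has 655 bases of exon. It had 12.2, 11.1 and 11.4 CPM at Day 6, against 364.1 and 34.02 CPM in L4 replicates 1 and 2. The Day 6 libraries were nearly alike, and the L4 libraries differed from each other more than L4 replicate 2 differed from Day 6. *mrpl-12* was 17.1-fold lower at Day 6 with all libraries (-4.10 ± 0.90 SE, adjusted p = 0.0174, edgeR) and 2.78-fold lower without L4 replicate 1 (-1.47 ± 0.26 SE, adjusted p = 0.0017).

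*mrpl-10* encodes the protein that anchors this stalk. It had 13.9, 11.9 and 15.3 CPM at Day 6, against 44.4 and 29.85 CPM at L4, without overlap. Its difference narrowly missed the threshold with all libraries (-1.43, adjusted p = 0.0550, edgeR) and passed without L4 replicate 1 (-1.05, adjusted p = 0.0115).

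*mrpl-16*, a relative of L16 near the site of peptide bond formation, is the gene in which the L4 libraries agreed best among those that fell. It had 7.47, 5.75 and 7.98 CPM at Day 6, against 27.5 and 30.6 CPM at L4. The log2 fold change was -2.04 both with all libraries (adjusted p = 0.0203, edgeR) and without L4 replicate 1 (adjusted p = 0.0005), which is 4.11-fold and 4.10-fold lower. *mrpl-16* was singled out after its values were seen. *mrpl-2*, for the relative of L2 beside the peptidyl transferase centre, had 11.2, 13.5 and 14.5 CPM at Day 6, against 60.6 and 28.9 CPM at L4, and fell in both fits (-1.77 and -1.07, adjusted p = 0.0379 and 0.0118, edgeR).

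*mrpl-15*, *mrpl-19*, *mrpl-22* and *mrpl-30* also fell in both fits, with log2 fold changes of -2.98, -1.49, -3.27 and -3.32 with all libraries and -1.63, -1.22, -1.83 and -1.54 without L4 replicate 1. In each of these 4 genes both L4 libraries were above all Day 6 libraries. *mrpl-30* shares 26 bases of exon with *strm-1* on the opposite strand, which fell too (-3.48).

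Other large subunit genes of bacterial ancestry moved with only one of the L4 libraries. *mrpl-36* had 8.83, 8.44 and 9.17 CPM at Day 6, against 104.1 and 8.93 CPM in L4 replicates 1 and 2. With 309 bases of exon it is the shortest member, and L4 replicate 2 lay within the Day 6 values. *mrpl-36* passed in neither fit (-2.67 and 0.06, adjusted p = 0.0556 and 0.892, edgeR), and *mrpl-17* was alike (-2.02 and -0.04). *mrpl-1* was the opposite. It had 9.03, 12.1 and 13.6 CPM at Day 6, against 4.70 and 29.9 CPM at L4, and fell without L4 replicate 1 (-1.29, adjusted p = 0.0070, edgeR) but not with it (-0.60, adjusted p = 0.564). *mrpl-1* shares 276 bases of exon with *emc-6* on the same strand. *mrpl-13* gave -0.32 and -0.67 and passed in neither fit.

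*mrpl-18*, for a protein whose bacterial relative binds 5S rRNA, was the one member that rose in any of these fits apart from those without L4 replicate 2. It had 48.8, 28.2 and 35.02 CPM at Day 6, against 57.3 and 19.9 CPM in L4 replicates 1 and 2. The L4 libraries lay on either side of the Day 6 libraries. With all libraries there was little difference (-0.04, adjusted p = 0.963, edgeR), and without L4 replicate 1 *mrpl-18* was 1.98-fold higher at Day 6 (0.98 ± 0.36 SE, adjusted p = 0.0448). Of the 65 members, 7 had a positive log2 fold change in that fit, and only *mrpl-18* passed the test.

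Of the 14 large subunit genes without bacterial relatives, 6 fell in each of these fits (medians -1.88 and -0.83). *mrpl-41* is on chromosome II (288939 to 290386, plus strand). It had 11.6, 12.5 and 14.2 CPM at Day 6, against 323.9 and 32.96 CPM at L4, a pattern like that of *mrpl-12*. *mrpl-41* was 13.95-fold lower at Day 6 with all libraries (-3.80, adjusted p = 0.0197, edgeR) and 2.45-fold lower without L4 replicate 1 (-1.29, adjusted p = 0.0039). *mrpl-37* had 10.3, 9.85 and 11.1 CPM at Day 6, against 74.9 and 29.98 CPM at L4, and fell in both fits (-2.33 and -1.45, adjusted p = 0.0195 and 0.0021, edgeR).

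The row of *mrpl-44* was the most abundant of the family at Day 6, with 71.6, 64.7 and 55.8 CPM, against 348.8 and 179.5 CPM at L4, and it fell in both fits (-2.04 and -1.41). Because this row carries the description of another enzyme, the family was also counted without it, and 25 of the other 64 members fell, with a median of -1.64. *mrpl-45*, *mrpl-46* and *mrpl-50* were near no change with all libraries (-0.56, -0.45 and -0.43). In *mrpl-45* and *mrpl-46* L4 replicate 1 was below every Day 6 library, and both fell without it (-0.98 and -1.10, adjusted p = 0.0165 and 0.0241, edgeR). *mrpl-50* did not pass (-0.66, adjusted p = 0.0610).

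Between the subunits the medians were close. They were -1.76 in the 25 small subunit genes and -1.64 in the 40 large subunit genes with all libraries, and -0.78 and -0.94 without L4 replicate 1, and 11 of 25 and 15 of 40 genes fell with all libraries. The difference between the subunits was not tested.

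Of 5 relatives of the family that the naming rule leaves out, 2 fell. *dap-3* encodes a small subunit protein that binds GTP. It had 16.9, 17.25 and 18.3 CPM at Day 6, against 56.1 and 40.96 CPM at L4, and it fell in both fits (-1.47 and -1.15, adjusted p = 0.0441 and 0.0052, edgeR). The other was *mrps-18.C* (-2.91, and -0.34 without L4 replicate 1), and *mrps-18A*, *mrps-18B* and *mrps-18C* did not pass (-0.07, -0.62 and -1.13).

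The size of the difference followed exon length in L4 replicate 1. Members are short, with a median exon length of 747 bases against 1392 bases over all genes tested. In the 22 shortest members (309 to 655 bases) the median CPM of L4 replicate 1 over L4 replicate 2 was a ratio of 4.77, in the 21 of middle length 3.29, and in the 22 longest (995 to 2164 bases) 0.615. The median log2 fold change was -2.26, -1.54 and -1.07 in these groups with all libraries, and -0.79, -0.68 and -1.16 without L4 replicate 1. All genes tested in the same length windows had medians of -1.002, -0.455 and 0.01 with all libraries, so members were lower than genes of their own length in each window. Over the members, Spearman's rho between exon length and the log2 ratio of Day 6 over L4 was 0.52 with L4 replicate 1 and -0.26 with L4 replicate 2, as a description over genes measured in the same libraries.

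**Figure D3:**
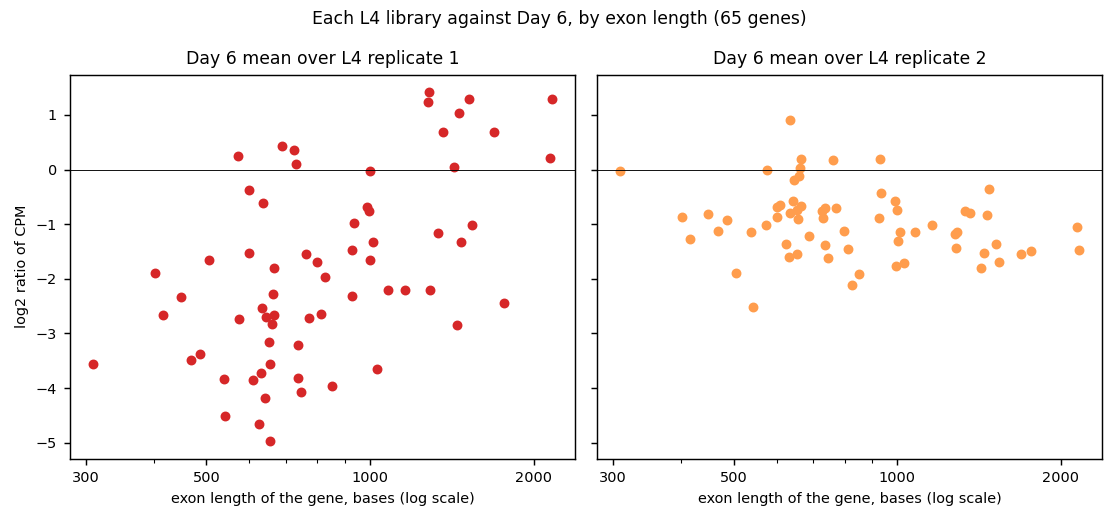
Log2 ratio of the mean Day 6 CPM over the CPM of L4 replicate 1 (left) and L4 replicate 2 (right) against exon length, for the 65 genes. Short genes reach the most negative ratios against L4 replicate 1, and several genes over 1000 bases are positive, whereas against L4 replicate 2 most genes of every length lie below 0.

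The trend of counts with exon length was therefore removed from every library and the test repeated. Then 33 of 65 members fell, while 17.9% of all genes did, and the median of the members was -1.43 against -0.32 over all genes. With the trend removed and L4 replicate 1 left out, 28 fell and 1 rose, *mrpl-18*, while 24.3% of all genes fell, and the median was -0.72 against 0.06 over all genes. Both L4 libraries were above all Day 6 libraries in 44 members after the trend was removed, and in 28.9% of all genes. By length groups, the medians with the trend removed and all libraries were -1.59, -1.52 and -1.40, nearly level from short to long. With L4 replicate 1 also left out they were -0.54, -0.53 and -1.10, most negative in the longest members.

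Over these 4 fits (all libraries or without L4 replicate 1, each with the length trend as it was or removed), 15 members fell in every one. They were *mrps-9*, *mrps-12*, *mrps-14*, *mrps-25* and *mrps-34* of the small subunit and *mrpl-2*, *mrpl-12*, *mrpl-15*, *mrpl-16*, *mrpl-19*, *mrpl-22*, *mrpl-30*, *mrpl-37*, *mrpl-41* and *mrpl-44* of the large subunit. In contrast, 23 members fell in none of the 4, among them *mrps-2*, *mrps-5*, *mrps-11*, *mrpl-9* and *mrpl-18*. The shares of all genes that fell in every one of the 4 or in none were not counted. The 4 fits share libraries, and the calls were mostly lost in other fits. Without Day 6 replicate 1, 2 or 3, 0, 1 and 0 members fell.

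Many *C. elegans* genes lie in operons, in which closely spaced genes on one strand are transcribed together and then cut apart. Of the 65 members, 32 had a protein-coding gene on the same strand less than 300 bases away, at a median gap of 105 bases. The files and annotation do not list operons, so shared transcripts are not known here. Of these 32 members 13 fell, with a median of -1.65, while of the 39 neighbours tested, members left out, 3 fell and 4 rose, with a median of 0.24. Without L4 replicate 1 the medians were -0.88 and 0.38. The difference between members and neighbours was not tested.

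*mrps-12* lies 96 bases upstream of *exos-7*, a gene of the RNA-degrading exosome, which did not pass the test (-0.56, adjusted p = 0.455, edgeR) where *mrps-12* had -3.83. *mrpl-30* lies 105 bases from W04B5.5 (1.28, against -3.32 in *mrpl-30*). The neighbours that fell were *dap-3*, 105 bases upstream of *mrps-22*, *misc-1*, a mitochondrial carrier gene upstream of *mrpl-41* (-1.96), and F29B9.11 beside *mrps-21* (-3.57). Those that rose were F43C1.7, *crn-2*, W04D2.4 and F21D5.6, beside *mrpl-21*, *mrpl-48*, *mrps-11* and *mrps-33*. Among same-strand neighbours within 1000 bases, 1 pair consisted of members, *mrps-2* and *mrpl-4*, 105 bases apart, with -1.54 and -1.24 with all libraries and 0.27 and -1.07 without L4 replicate 1. These neighbours were named after their values were seen.

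**Figure D4:**
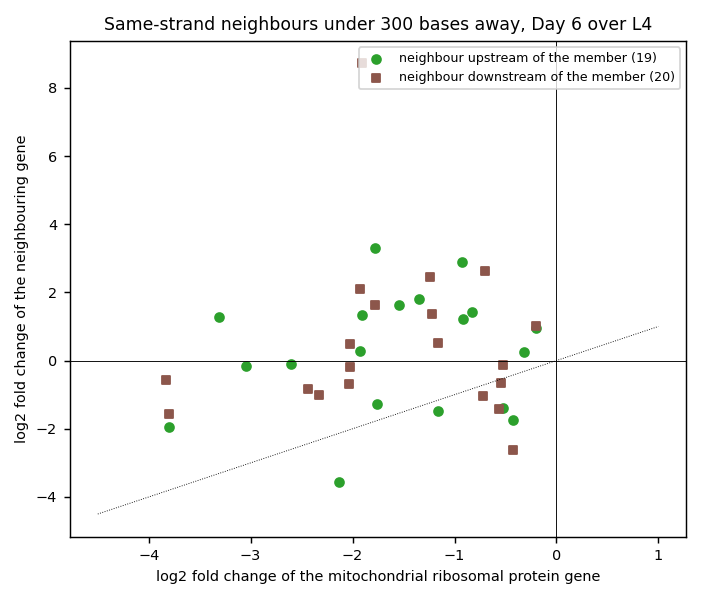
Log2 fold change (Day 6 over L4, all 5 libraries) of the neighbouring gene (y axis) against that of the mitochondrial ribosomal protein gene (x axis), for same-strand protein-coding neighbours under 300 bases away. Circles are neighbours upstream and squares downstream of the member, and the dotted line marks equal change. Most points lie above that line, with the neighbours around a median of 0.24.

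The members were spread over the autosomes, with 15 on chromosome I, 11 on II, 20 on III, 10 on IV and 9 on V, and none on X, which holds 13.7% of all genes tested. Of the 65, 17 share exon sequence with another protein-coding gene, 5 on the same strand and 12 on the opposite strand. Among the 48 that share none, 19 fell and the median was -1.77, and without L4 replicate 1 23 fell with a median of -0.81.

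Other genes for mitochondrial gene expression were not uniformly lower. Of 19 tested genes for mitochondrial translation and RNA factors, 3 fell and 1 rose, with a median of 0.10, and without L4 replicate 1 4 fell and 5 rose, with a median of -0.18. With all libraries, those that fell were *oxa-1*, for an insertase of the inner membrane, and *tufm-1* and *tsfm-1*, for the elongation factors that bring aminoacyl-tRNAs to the mitoribosome and recharge that factor. *tufm-1* had 50.3, 52.0 and 49.97 CPM at Day 6, against 366.2 and 140.6 CPM at L4 (-2.32, adjusted p = 0.0257, edgeR). *polg-1*, for the mitochondrial DNA polymerase, had 9.66, 10.4 and 10.01 CPM at Day 6, against 2.11 and 3.24 CPM at L4, and was the one that rose with all libraries (1.87, adjusted p = 0.0460). Of 14 mitochondrial aminoacyl-tRNA synthetase genes, which load tRNAs with amino acids, 2 fell (*nars-2* at -1.59 and *sars-2* at -1.52) and 1 rose (*rars-2* at 2.38) with all libraries. The median of these genes was -0.29 with all libraries and -0.34 without L4 replicate 1. With the length trend removed and all libraries, the medians were -0.71 for the translation and RNA factors and -0.86 for the synthetases. In that fit the members had -1.43 and all genes tested -0.32, so both lists lay nearer to the members than in the uncorrected fit.

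Genes of other mitochondrial proteins were counted in the same fits. Of 49 nuclear genes of the respiratory chain and ATP synthase, 26 fell, with a median of -2.95 (-1.07 without L4 replicate 1, 28 fell). Of 36 genes for mitochondrial import and quality control, 14 fell, with a median of -1.58 (-0.82 and 18 without L4 replicate 1). Y22D7AL.10 (-5.54), for a relative of the chaperonin Hsp10, and *phb-1* (-3.01), for a prohibitin, had the highest mean CPM over the 5 libraries of the genes that fell in the import and quality control list, and *cox-6B* (-3.57) and *asb-2* (-3.33), for subunits of cytochrome c oxidase and ATP synthase, in the respiratory chain list. In each of these 4 genes L4 replicate 1 had by far the highest value of the 5 libraries. The genes of the cytosolic ribosome took another course. Of 77 tested, 2 fell (*rpl-37* and *rpl-41.1*), with a median of -2.25 with all libraries but 0.57 without L4 replicate 1. At Day 6 these 2 genes were low, with 1.66, 0.80 and 2.32 CPM in *rpl-37* and 3.45, 5.94 and 8.81 CPM in *rpl-41.1*. The whole list summed to between 128200 and 236100 CPM in the Day 6 libraries. The median of the mitochondrial ribosomal protein genes kept its sign with and without L4 replicate 1, and that of the cytosolic ones did not.

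**Figure D5:**
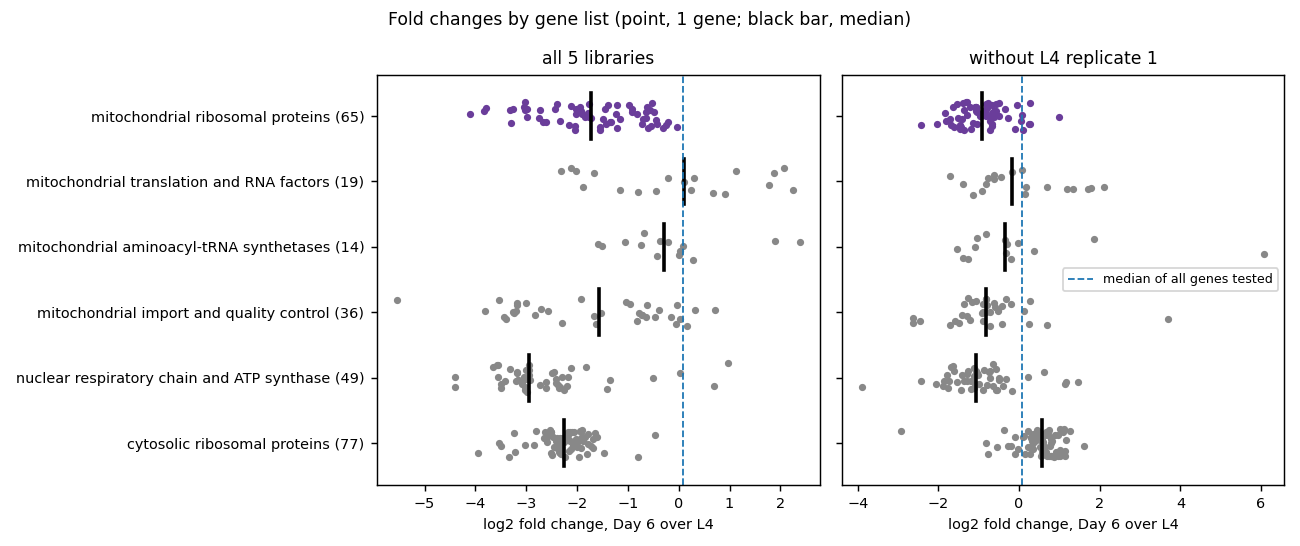
Log2 fold change of Day 6 over L4 by gene list, with all 5 libraries (left) and without L4 replicate 1 (right). Each point is a gene, the black bar the list's median, the dashed line the median of all genes tested, and the number in brackets the genes of the list that were tested. The medians of mitochondrial ribosomal proteins were -1.73 and -0.93, and those of cytosolic ribosomal proteins -2.25 and 0.57.

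Markers of tissues moved between the groups as well. Of 20 body wall muscle markers 11 fell (median -2.34), and together they took 0.453% to 0.692% of the counts at Day 6, against 1.24% and 2.42% at L4. Intestine markers took 0.469% to 0.532% at Day 6, against 1.33% and 1.76% at L4 (8 of 20 fell). Hypodermis markers took 0.0343% to 0.0746% at Day 6, against 0.148% and 0.582% at L4 (15 of 20 fell, 1 rose). Germline and oocyte markers took 1.37% to 1.74% at Day 6, against 0.0387% and 0.106% at L4 (24 of 29 rose). Of 19 neuron markers 4 fell (median -0.01), with 0.0487% to 0.0649% at Day 6, against 0.0303% and 0.0491% at L4. Sperm markers took 0.0072% to 0.0164% at Day 6, against 0.00704% and 0.0467% at L4 (7 of 17 fell). The part of these shifts in the lower levels of the mitochondrial ribosomal protein genes was not tested.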

How the data were processed

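The authors deposited unnormalized counts of reads for each gene, 1 table for each of 5 libraries. Per the study's methods and the submitters' processing notes, the authors depleted rRNA, made strand-specific cDNA, aligned single reads to WormBase release WS254 with TopHat2 and counted with featureCounts; versions, the strand setting and the handling of reads with several matches are not given in the sources used here. Their edgeR, limma and DESeq2 steps came later and are not in these counts.

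The members and lists were chosen with earlier results of these data known. Day 6 and L4 were set against each other by the quasi-likelihood test of edgeR 4.0.16 (R 4.3.3; TMM; filterByExpr, count minimum 10 and total minimum 15, Benjamini-Hochberg adjustment over 12758 genes). The SE of a log2 fold change was computed from that change and its test statistic. Alternatives were other normalizations, DESeq2 1.42.0, voom in limma 3.58.1, other filters, each library left out, replicate blocks, and removal of the trend with exon length (lowess, span 0.3). Where 1 L4 library was left, its spread was taken from the Day 6 libraries. Exon lengths, positions and the names of neighbours came from Ensembl annotation of WBcel235. Gene symbols came from lists of gene names by WormBase ID or locus tag, or else from the count files. Python 3.11.15, pandas 2.3.3 and matplotlib 3.10.9 were used.

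Members named with values were the 6 of highest and 4 of lowest mean CPM per kb, the 6 most and 6 least negative, up to 10 that fell in 3 fits, and 12 chosen for their role. Deviations from the group mean were correlated between same-numbered libraries, with r of 0.34 and 0.27 by the title numbers. By the library-name numbers r was -0.27 and 0.13. The deviations of the 2 L4 libraries are mirror images, so the 2 values of a numbering are not separate observations. The numberings conflict for L4 and there are only 2 pairs, so the pairing was not decided and both blocks were fitted.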

Additional observations from a re-analysis of the deposited data

How the results depend on the processing

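The count of members that fell (26) was within 1.5 times of this in 8 of the settings: 32 without L4 replicate 1, 35 with RLE, 36 with upper-quartile normalization, 38 with DESeq2, 23 without a filter, 27 with at least 1 CPM in 2 libraries, 33 with the length trend removed and 28 with it removed and without L4 replicate 1. It was 17 with voom, 0 with library size alone (7 at an unadjusted p under 0.05 by edgeR), and 0 to 47 over the fits that each left out 1 library. With the replicate block it was 1 by title numbers, 1 by library-name numbers, and 9 by title numbers with the length trend removed. Of all genes, 15.7% fell with RLE, 16.1% with upper-quartile normalization, 16.7% with DESeq2 and 10.9% without a filter. The share was 13.2% with at least 1 CPM in 2 libraries, 12.4% with voom, and 8.5% with the length trend removed and the block. The count that rose (0) was also 0 without each Day 6 library in turn. It was above 0 in the fits that kept 1 L4 library, whose spread came from the Day 6 libraries alone.

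The median log2 fold change (-1.73) was -0.80 with library size alone, -2.19 to -0.93 over the left-out libraries, and -0.72 with the length trend removed and without L4 replicate 1. Relative to all genes (-1.81) it was -1.25, -3.25 to -1.003, and -0.77 in the same settings, -1.11 with the length trend removed, and -1.27 with that and the block by title numbers. The small subunit median (-1.76) was -0.89 with library size alone, -2.19 to -0.78 over the left-out libraries, -0.72 with the trend removed and without L4 replicate 1, and -1.25 with the trend removed and the block. The large subunit median (-1.64) was -0.75, -2.08 to -0.94, and -0.71 in the first 3 of these. Every one of these medians stayed negative. Members without overlap between the groups numbered 27 with library size alone instead of 42. The share of all genes without overlap was not counted with library size alone.

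Of the named members, *mrpl-18* was positive with library size alone (0.93), voom (0.19), no filter (0.11), the block by title numbers (0.14), the length trend removed (0.27), that with the block (0.37), and that without L4 replicate 1 (1.16), and lay between -0.61 and 0.98 over the left-out libraries. Some members were negative without L4 replicate 1 and positive without L4 replicate 2, with ranges over the left-out libraries of -1.29 to 1.30 (*mrpl-1*), -0.67 to 0.35 (*mrpl-13*), -0.98 to 0.22 (*mrpl-45*), -1.10 to 1.24 (*mrpl-46*), -1.72 to 0.06 (*mrps-22*), -0.77 to 1.04 (*mrps-26*, also positive without Day 6 replicate 1), -1.47 to 0.68 (*mrps-30*), -1.39 to 1.30 (*mrps-31*) and -0.71 to 0.70 (*mrps-35*). For *mrpl-36* the range was -3.55 to 0.06, and with the length trend removed and without L4 replicate 1 it was 0.62 and *mrpl-17* 0.13. With the block by library-name numbers, *mrpl-1* (0.08), *mrpl-46* (0.15), *mrps-26* (0.29) and *mrps-35* (0.06) were positive. The cause of these changes was not tested. Depth limits the low members, which rest on as few as 9 reads, and 2 L4 libraries that differ from each other limit every fold change. Counting the family without *mrpl-44*, or only over members with no shared exon, was chosen after seeing the data.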
